A study of Homo sapiens with 27 samples.

Results

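SK-OV-3 cells, a line of human ovarian adenocarcinoma that grows as an epithelial sheet, were compared between cycling and chronic hypoxia. The comparison took 6 of the 27 arrays of the series by their labels, 3 of cycling and 3 of chronic hypoxia, and covered all genes measured. All SK-OV-3 cultures lasted 72 h, on glass plates in McCoy's medium with serum. Chronic hypoxia cells stayed at 1% oxygen throughout. In cycling hypoxia, spells at 1% oxygen of 4 h or 12 h took turns with 4 h spells at 21%, and the schedule ended with a spell at 21%, so that the RNA of this group was taken after reoxygenation and that of the chronic group was not. The study's text and legend give the spells in different orders, and both end at 21%. A further group of 3 control arrays came from cells kept at 21% oxygen, and it is used here to place the levels. Each group holds biological replicates of 1 cell line, so the p values measure the spread between cultures of that line. PC-3 prostate carcinoma and WM793B melanoma cells, with 3 arrays for each of the same oxygen conditions, are used only to show where SK-OV-3 cells differed. Their media differed as well. PC-3 cells grew in RPMI medium with serum, and WM793B cells in Tu medium with less serum and added insulin. Cell line and medium therefore cannot be told apart.

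Cells sense oxygen through prolyl hydroxylases of the EGLN family, which need oxygen to mark the alpha subunits of hypoxia-inducible factor (HIF) for destruction. When oxygen is scarce, the alpha subunit accumulates, pairs with ARNT and raises genes of glucose uptake, glycolysis, lactate handling, blood vessel growth and pH control. When oxygen returns, HIF is degraded within minutes and the mRNAs it raised decay at their own rates. Reoxygenation also brings reactive oxygen species, and the transcription factors NF-kB, AP-1, NRF2 and ATF4 are known to answer oxidative, inflammatory and amino acid stress. In ovarian carcinoma, the chemokines and growth factor ligands that these factors raise are studied for their part in spread within the peritoneum.

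Values are log2 GC-RMA signals of probe sets, and 1 unit is a 2-fold difference. The lowest value was 2.28 and the highest 15.52, and a value under 5 is called dim here. This limit on the log2 scale was chosen for this account and not measured from the arrays, and a lower one would raise the bounds given as "at least". On single SK-OV-3 arrays 66.7 to 67.4% of all probe sets were under 5. Arrays of a group correlated at 0.994 to 0.997 across probe sets, and cycling with chronic hypoxia arrays at 0.986 to 0.989. Of 13 markers of ovarian carcinoma and epithelium, 11 reached 5 in SK-OV-3 cells, among them PAX8, EPCAM, ERBB2 and 4 keratins, whereas WT1 and MUC16 did not. Between the hypoxic groups KRT18 was higher under cycling hypoxia by 0.39, and KRT19, EPCAM and PAX8 were lower by 0.56, 0.20 and 0.29, calls that EPCAM lost in 12 and PAX8 in 5 of 17 alternatives, while CDH1, CLDN3, CLDN4, KRT7, KRT8, MUC1 and ERBB2 did not pass the test. None of 9 leukocyte and erythroid markers reached 5, with a highest value of 2.63. The only melanocyte marker above 5 was MITF, at up to 9.60, while MLANA, PMEL and TYRP1 were at the lowest value of the table on all SK-OV-3 arrays. Of 5 prostate markers only KLK3 passed 5, at up to 5.11. The summed level of the epithelial markers was 14.76 to 14.92 under chronic and 14.75 to 14.78 under cycling hypoxia (log2 of the sum). Of the genes the study used as PCR references in SK-OV-3 cells, HADHA was at 9.61 to 9.76 under chronic and at 9.41 to 9.57 under cycling hypoxia and did not enter the test, as it varied too little, and CTBP1 (-0.05) did not pass it. EIF5, a reference in the other lines only, was higher under cycling hypoxia by 0.78.

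Cycling and chronic hypoxia left SK-OV-3 cells with widely different transcript levels. Of 10021 genes tested, each read by its brightest probe set, 3427 differed at an adjusted p under 0.05 (34.2%), 1852 of them higher under cycling than under chronic hypoxia (18.5%) and 1575 lower (15.7%). At least 2-fold differences were found for 354 genes that were higher (3.53%) and 370 that were lower (3.69%), and at least 4-fold differences for 23 and 54 genes. The median difference over all genes was 0.00. Over probe sets the test called 6026 of 19800 (30.4%), 3242 higher (16.4%) and 2784 lower (14.1%), with 720 (3.64%) and 763 (3.85%) at least 2-fold apart. In 89 of the 354 higher and 90 of the 370 lower genes all 3 arrays of the lower group were dim. For such genes the fitted difference depends on values below the limit, and a bound is given instead, the mean of the higher group over 5. Since whole cultures were measured, a lower signal can mean fewer cells that express a gene or less RNA in each cell, and these cannot be told apart.

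The largest falls were those of CXCR4, DEPP1, ANGPTL4, PFKFB4, FAM43A, STC1, HK2, ANKRD37, NAV1 and ACKR3. CXCR4 is the chemokine receptor of CXCL12, and ACKR3 is the scavenging receptor of the same ligand. The largest rises were those of EREG, a ligand of the epidermal growth factor (EGF) receptor, the stress transcription factor ATF3, the secreted pattern recognition protein PTX3, the neutrophil chemokine CXCL2, the long non-coding RNA LINC02806, the glutathione-degrading enzyme CHAC1, the ERK phosphatase DUSP5, the fructose bisphosphatase TIGAR, the coenzyme Q binding protein COQ10B and ATP6V0A2, a subunit of the vacuolar proton pump. The fitted differences of these 20 genes ran from -6.61 to -3.51 and from 2.36 to 4.77. The lower group was dim on all 3 arrays for CXCR4, DEPP1, PFKFB4, EREG, PTX3, LINC02806, TIGAR and ATP6V0A2, so that their place in this order is not measured. The bounds were at least 16-fold for DEPP1, 4.55-fold for PTX3, 2.08-fold for ATP6V0A2, 1.81-fold for LINC02806 and 1.28-fold for TIGAR. A second probe set of ATP6V0A2 had a difference of 0.10 and was not called.

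**Figure D1:**
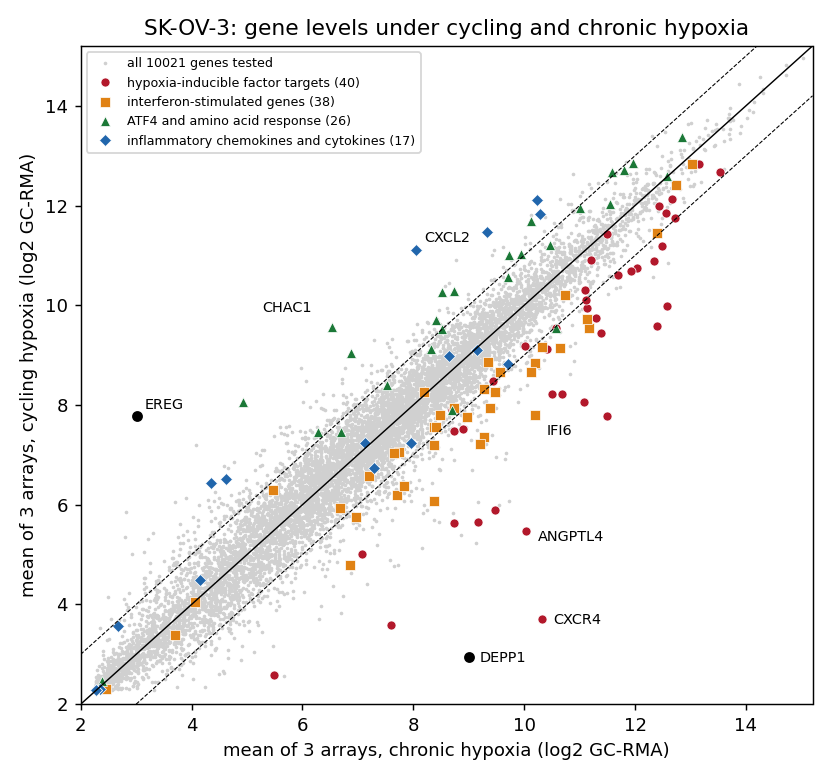
Mean level of each gene on the 3 cycling hypoxia arrays (vertical axis) against the 3 chronic hypoxia arrays (horizontal axis) of SK-OV-3 cells, in log2 GC-RMA units, with the line of equality and dashed lines at a 2-fold difference. HIF targets and interferon-stimulated genes lie mostly below the line, down to CXCR4 at a difference of -6.61, and ATF4 targets and inflammatory chemokines mostly on or above it, with EREG (4.77, black point) highest.

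Targets of hypoxia-inducible factor were lower under cycling than under chronic hypoxia nearly throughout. Of 40 target genes tested, 37 were lower (15.7% of all genes were) and none was higher (18.5% of all genes were). By at least 2-fold, 27 were lower (3.69% of all genes were). The median difference was -1.30 against 0.00 over all genes. Against control cells, 39 of the 40 were higher under chronic hypoxia (24.1% of all genes were), with a median of 2.62, and 26 were higher under cycling hypoxia (19.3% of all genes were), with a median of 0.56. Both of these comparisons use the same control arrays. The 3 targets not called between cycling and chronic hypoxia were the glucose transporter gene SLC2A3, listed at 2.28 to 2.30 on all SK-OV-3 arrays, LOX, the enzyme that cross-links collagen, at -0.08, and the oxidase gene ERO1A, at -0.29. For ERO1A 2 further probe sets were called lower, at -1.31 and -0.83.

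CXCR4 was at 10.38, 10.14 and 10.44 on the chronic arrays, at 3.75, 3.40 and 3.98 on the cycling arrays and at 2.28 on all 3 control arrays. Only the chronic arrays were above 5, and the difference of -6.61 (SE 0.15, adjusted p = 3.01e-06) stands for a level at least 40-fold lower under cycling hypoxia. Its other 2 probe sets gave -6.10 and -6.01. ACKR3 was at 9.14, 9.34 and 9.04 under chronic hypoxia and at 5.45, 5.66 and 5.87 under cycling hypoxia. Control cells were at 5.51 to 5.98, so the cycling and control values overlapped, and cycling was 11.4-fold lower than chronic hypoxia.

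ANGPTL4, a secreted inhibitor of lipoprotein lipase, was at 10.27, 10.05 and 9.79 under chronic and at 5.39, 5.56 and 5.48 under cycling hypoxia. Control cells were lower than both, at 3.30 to 4.37, and the difference between the hypoxic groups was -4.56 (SE 0.27, adjusted p = 0.0001). PFKFB4, which makes the activator fructose 2,6-bisphosphate of glycolysis, was at 7.80, 7.37 and 7.63 on chronic arrays. On cycling arrays it was at 3.71, 3.67 and 3.40, close to the 3.39 of all control arrays, and the fall was at least 6.06-fold. The secreted glycoprotein gene STC1 fell 13.2-fold, from a mean of 11.50 to one of 7.77, and cycling cells stayed 1.57 above control cells.

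Outside the genes with the largest falls, SLC2A1, the main glucose transporter of cancer cells, was 5.46-fold lower under cycling hypoxia and within 0.23 of control cells. NDRG1, a stress-response gene, was 6-fold lower, at 9.89, 9.97 and 10.11 against 12.78, 12.46 and 12.49, and BNIP3, which directs mitochondria to autophagy, was 2.76-fold lower. Both stayed above control cells, by 1.26 and 1.21. The vascular growth factor gene VEGFA fell less, from 13.50, 13.51 and 13.61 to 12.82, 12.55 and 12.64, a 1.82-fold difference with no overlap.

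HIF binds the core letters ACGTG or GCGTG. In the 220 bases before the start site of RefSeq promoters, 25 of the 31 listed targets with an entry held 1 of these cores on either strand (80.6%), against 61.5% of all tested genes with an entry and 44.6% of all 27305 genes of the table. Among all genes at least 2-fold lower, 163 of 278 held a core (58.6%), and among those at least 2-fold higher 171 of 293 (58.4%). Both shares were below that of all tested genes. The short core is thus common, and a match is a description of letters and not a site. ANKRD37 and PFKFB4 are shown because their falls were among the largest and their promoters carry the cores at 166 to 143 bases before the start. The capitals mark the cores, and in ANKRD37 the first run reads the same on both strands. Sequences are from build GRCh38.p14 and run 5′ to 3′ on the strand of the gene.
ANKRD37, chr4:185396621-185396840, plus strand: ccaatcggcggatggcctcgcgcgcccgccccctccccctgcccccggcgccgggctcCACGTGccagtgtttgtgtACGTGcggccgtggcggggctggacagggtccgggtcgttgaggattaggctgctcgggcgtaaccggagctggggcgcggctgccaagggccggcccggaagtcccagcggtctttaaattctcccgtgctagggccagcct
PFKFB4, chr3:48556804-48557023, minus strand: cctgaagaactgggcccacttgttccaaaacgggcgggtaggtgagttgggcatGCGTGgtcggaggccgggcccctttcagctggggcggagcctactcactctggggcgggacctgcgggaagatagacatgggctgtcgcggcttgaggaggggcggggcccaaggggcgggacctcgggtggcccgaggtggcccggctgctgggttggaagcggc

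ANKRD37, an ankyrin repeat protein, was at 9.60, 9.28 and 9.52 under chronic and at 5.89, 5.89 and 5.92 under cycling hypoxia, a difference of -3.57 (SE 0.10, adjusted p = 1.05e-05). Control cells were at 4.74 to 5.03, below both hypoxic groups.

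Of 14 glycolysis enzymes tested, 10 were lower (15.7% of all genes were) and none was higher (18.5% of all genes were), with a median of -0.43. The hexokinase gene HK2 was at 9.99, 9.60 and 9.56 under chronic and at 5.96, 6.11 and 6.18 under cycling hypoxia, 12.4-fold lower, and 1 of its 2 other probe sets was called lower too, both being at -0.73 and -0.68. The enolase gene ENO2 was 7.03-fold, the phosphoglycerate mutase gene PGAM1 2.19-fold and the phosphofructokinase gene PFKP 1.68-fold lower. Among the HIF subunits and hydroxylases, HIF1A mRNA went the other way. It was at 12.52, 12.48 and 12.61 under chronic and at 13.42, 13.51 and 13.51 under cycling hypoxia, a 1.92-fold higher level that lay just below the 13.62 to 13.72 of control cells (adjusted p = 7.64e-05). ARNT, its partner, was 1.22-fold higher, a call that did not hold in 12 of 17 alternatives, and the oxygen sensor EGLN1, itself a HIF target, was 1.74-fold lower. EPAS1, which encodes HIF-2 alpha (-0.18, adjusted p = 0.0587), and ARNT2 (-0.42, adjusted p = 0.232) did not pass the test. Of 15 histone demethylases 4 were lower (26.7%, against 15.7% of all genes) and 3 higher (20%, against 18.5%), and 2 were lower without cycling replicate 2 or chronic replicate 3. KDM3A and KDM4B, enzymes that need oxygen, fell 2.47-fold and 2.4-fold, KDM5A fell 1.53-fold and KDM6A rose 1.61-fold.

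Of 20 genes of fatty acid synthesis and lipid droplets, 6 were lower (15.7% of all genes were) and 3 higher (18.5% of all genes were). The lower count was 3 without cycling replicate 1 and 4 without cycling replicate 2 or 3. HILPDA and PLIN2, proteins of the lipid droplet, were 8.59-fold and 6.71-fold lower under cycling hypoxia, whereas G0S2, an inhibitor of the lipase of droplets, was 3.38-fold higher, at 12.67, 12.76 and 12.49 against 11.05, 10.49 and 11.10. ACACB, an acetyl-CoA carboxylase, was lower by 1.02 on the log2 scale, with 2 of 3 chronic and all cycling arrays dim. INSIG1 and INSIG2, which hold the cholesterol regulator SREBP in the endoplasmic reticulum, were 7.39-fold and 4.86-fold lower. INSIG1 under cycling hypoxia, at 5.96, 5.75 and 5.78, lay below control cells at 7.63 to 7.98 as well as below chronic hypoxia at 8.40 to 9.20. Of 23 genes of cholesterol synthesis and its control, 7 were lower (15.7% of all genes were) and 1 was higher (18.5% of all genes were), with a median of -0.23. Without chronic replicate 2, 3 were higher and the median was -0.15. The single rise was that of the cholesterol exporter gene ABCG1, from 5.57, 3.97 and 4.76 to 7.08, 6.85 and 6.65, and control cells were higher still, at 7.83 to 8.23. The isomerase gene EBP fell 2.28-fold.

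**Figure D2:**
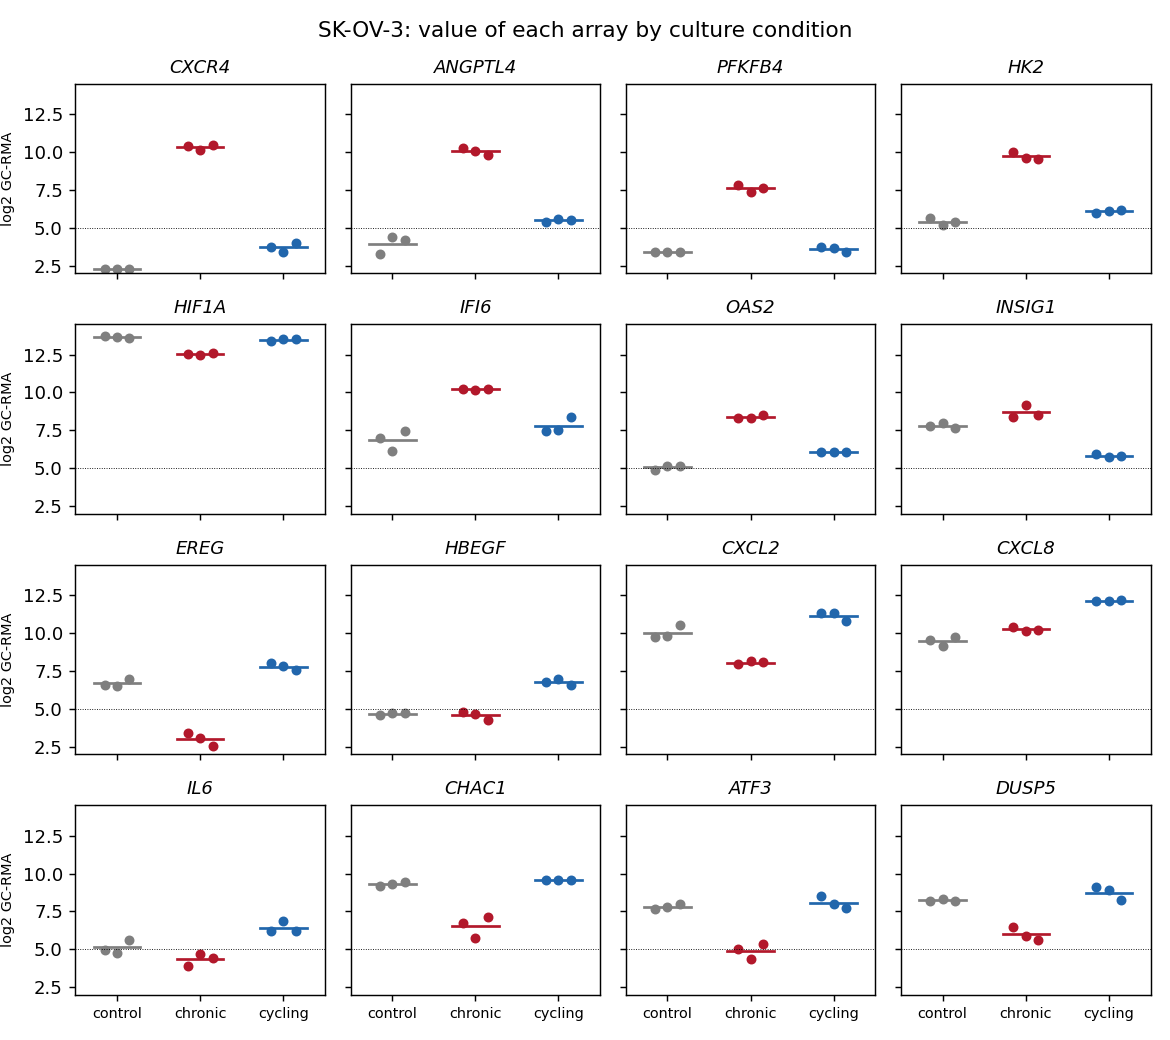
Value of each SK-OV-3 array (points, in log2 GC-RMA units) by culture condition for 16 genes, with the mean of 3 arrays as a bar and the dim limit of 5 as a dotted line. CXCR4, ANGPTL4, PFKFB4 and HK2 are high on chronic hypoxia arrays only, and EREG, CXCL2, CHAC1, ATF3 and DUSP5 are low there, with cycling values near or above those of control cells.

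Interferon-stimulated genes, which encode antiviral proteins, were mostly lower under cycling than under chronic hypoxia. Of 38 tested, 30 were lower (15.7% of all genes were) and 1 was higher (18.5% of all genes were), with a median of -0.94. By at least 2-fold, 18 were lower (3.69% of all genes were). The second chronic array held the lowest chronic value in 28 of the 38, against 32.8% of all genes, and without it 30 were lower. Against control cells, 34 were higher under chronic hypoxia (24.1% of all genes were), with a median of 1.63. Under cycling hypoxia 20 were higher (19.3% of all genes were), with a median of 0.64. Cycling cells thus lay between the other groups on the median. IFI6, a mitochondrial antiviral protein, was at 10.22, 10.15 and 10.25 under chronic and at 7.47, 7.55 and 8.39 under cycling hypoxia. Control values of 6.15 to 7.43 lay below the cycling values, and the fall between the hypoxic groups was 5.28-fold (SE 0.36 on the log2 scale, adjusted p = 0.00293). OAS2, which makes the 2-5A activator of RNase L, went from 8.33, 8.29 and 8.51 to 6.07, 6.05 and 6.10, a 4.95-fold fall. IFI44L fell at least 3.62-fold, as its cycling values of 4.68 to 4.98 were dim. OAS3 fell 4-fold by its brightest probe set, while its other probe set had a difference of 0.10 and was not called. IFIT1 and the ubiquitin-like modifier ISG15 fell 2.73-fold and 2.69-fold. The single rise was that of IRF1, a transcription factor that interferon gamma induces, at 6.21, 6.38 and 6.26 against 5.68, 5.09 and 5.64.

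The core of the interferon-stimulated response element was searched on both strands, as GAAA and a further GAAA with any 2 bases between them, in the same 220 bases. It stood in 21 of the 30 listed genes with an entry (70%), against 3.15% of all tested genes and 3.26% of all genes of the table. This share describes a list of genes known to answer interferon, and not the comparison. Of the genes that were at least 2-fold lower, 24 of 278 held it (8.63%), and of those at least 2-fold higher, 10 of 293 (3.41%). Listed genes are part of the lower genes, so their share is not independent of the list. As with the HIF core, a match describes letters and not a site. The promoters of IFI6, with 3 copies, and IFI44L, with 2, are shown as the clearest cases among the genes that fell, with the copies in capitals.
IFI6, chr1:27672193-27672412, minus strand: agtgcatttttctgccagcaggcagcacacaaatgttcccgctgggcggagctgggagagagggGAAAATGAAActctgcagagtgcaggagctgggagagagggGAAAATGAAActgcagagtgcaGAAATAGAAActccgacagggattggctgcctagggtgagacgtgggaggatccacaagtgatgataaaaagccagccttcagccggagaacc
IFI44L, chr1:78620228-78620447, plus strand: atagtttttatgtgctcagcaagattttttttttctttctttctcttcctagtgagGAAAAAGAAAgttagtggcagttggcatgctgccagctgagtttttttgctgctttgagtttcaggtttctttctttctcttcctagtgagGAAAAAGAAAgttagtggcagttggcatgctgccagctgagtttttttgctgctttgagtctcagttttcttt

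Inflammatory chemokines and cytokines held some of the largest rises. Of 17 tested, 7 were higher under cycling than under chronic hypoxia (18.5% of all genes were) and 3 were lower (17.6%, near the 15.7% of all genes). The median was 0.34, and 0.17 without cycling replicate 3 or chronic replicate 2. The 7 were CXCL2, IL1A, IL6, CXCL8, CXCL3, CXCL1 and IL11, the last dim on all arrays. The 3 that fell were the death ligand gene TNFSF10 (-0.89), IL32 (-0.71) and the macrophage growth factor gene CSF1 (-0.57), a count that went down to 1 without cycling replicate 2, cycling replicate 3 or chronic replicate 3. Against control cells, 11 of the 17 were higher (19.3% of all genes were) and none lower under cycling hypoxia, with a median of 1.09. Under chronic hypoxia 7 were higher (24.1% of all genes were) and 2 lower (25% of all genes were), with a median of 0.20.

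CXCL2 was at 11.29, 11.29 and 10.76 on cycling arrays, at 7.93, 8.12 and 8.07 on chronic arrays and at 9.74, 9.79 and 10.55 on control arrays. Cycling cells were above and chronic cells below control cells without overlap, and the difference between the hypoxic groups was 3.07 (SE 0.24, adjusted p = 0.000243), an 8.4-fold rise. The study's PCR placed CXCL2 above control cells under both types of hypoxia, more so under cycling hypoxia. The study called its PCR results in SK-OV-3 cells only marginally significant. CXCL8, or interleukin 8, which draws neutrophils and blood vessels, was at 12.10, 12.09 and 12.17 under cycling and at 10.38, 10.15 and 10.18 under chronic hypoxia. Here both hypoxic groups were above the control values of 9.17 to 9.73. The study's PCR also placed CXCL8 higher under cycling than under chronic hypoxia, with the same marginal significance. CXCL1 was at 11.93, 11.95 and 11.60 against 10.11, 10.47 and 10.30, a 2.89-fold rise, with control cells at 10.48 to 10.95. CXCL3, at 6.46, 6.83 and 6.23, was at least 2.84-fold higher than under chronic hypoxia, where all 3 arrays were under 5. IL6 was at 6.23, 6.84 and 6.23 under cycling hypoxia and dim on the chronic arrays, at 3.93, 4.69 and 4.46, a rise of at least 2.7-fold. The alarm cytokine IL1A rose 4.41-fold, from 9.57, 8.49 and 9.92 to 11.43, 11.62 and 11.36.

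CXCL1, CXCL2 and CXCL3 lie in 1 gene cluster on chromosome 4. An NF-kB site was searched on both strands, as GGG, any 2 bases and then TTTCC. It stood in the promoters of 8 of the 13 listed chemokines and cytokines with an entry (61.5%), against 2.45% of all tested genes and 1.9% of all genes of the table. The 3 CXCL promoters are printed because they carry the same letters at nearly the same place, 79, 78 and 79 bases before the start. These promoters are alike beyond the site as well, and whether the site has a part in the rises was not tested. Among all genes that were at least 2-fold higher, the share was 3.07%, and among those at least 2-fold lower 3.6%. Here too the share in the list describes the list, and a match describes letters and not a site.
CXCL1, chr4:73869173-73869392, plus strand: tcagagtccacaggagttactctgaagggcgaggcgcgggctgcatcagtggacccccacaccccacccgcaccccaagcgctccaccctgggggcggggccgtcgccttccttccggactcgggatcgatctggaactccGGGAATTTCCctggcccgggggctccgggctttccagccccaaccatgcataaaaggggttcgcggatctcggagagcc
CXCL2, chr4:74099196-74099415, minus strand: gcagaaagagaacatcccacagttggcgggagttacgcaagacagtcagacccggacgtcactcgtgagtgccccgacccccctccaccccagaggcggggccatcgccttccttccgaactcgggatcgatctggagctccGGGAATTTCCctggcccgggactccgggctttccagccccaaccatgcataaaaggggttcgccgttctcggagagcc
CXCL3, chr4:74038690-74038909, minus strand: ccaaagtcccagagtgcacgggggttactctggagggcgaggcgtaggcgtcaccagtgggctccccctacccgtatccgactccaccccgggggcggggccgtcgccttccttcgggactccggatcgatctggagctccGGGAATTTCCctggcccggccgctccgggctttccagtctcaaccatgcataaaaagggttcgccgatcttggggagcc

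Of 14 subunits and feedback regulators of NF-kB, 8 were higher (18.5% of all genes were) and none was lower (15.7% of all genes were), with a median of 0.55. The subunit RELB, at 6.28, 5.90 and 6.52 against 5.31, 4.43 and 4.85, rose by 1.37 on the log2 scale, with 2 of 3 chronic arrays dim, and the kinase gene IRAK2, of interleukin 1 receptor signalling, rose 2.38-fold. The deubiquitinase CYLD, which damps NF-kB signalling, rose 1.91-fold, and the nuclear inhibitor gene NFKBIZ rose 1.78-fold. With no variation filter 5 of the 14 were higher.

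Of 11 members of the EGF receptor family, its ligands and regulators, 3 were higher (EREG, HBEGF and ERRFI1) and 3 lower (TGFA, EGFR and ERBB4), against 18.5% and 15.7% of all genes. AREG, a further ligand, was not among the genes read, so it could not enter these counts or the largest rises above. The study reported AREG higher under cycling and lower under chronic hypoxia than in SK-OV-3 control cells. EREG was at 7.99, 7.80 and 7.55 under cycling hypoxia, at 3.39, 3.10 and 2.55 under chronic hypoxia and at 6.57, 6.52 and 6.94 in control cells. Only the chronic arrays were dim, and cycling hypoxia was at least 6.87-fold higher (difference 4.77, SE 0.23, adjusted p = 4.64e-05). HBEGF, the heparin-binding ligand, was at 6.79, 6.94 and 6.58 under cycling hypoxia, whereas both chronic and control values were between 4.29 and 4.76, so that it rose at least 3.4-fold. The study's PCR also placed HBEGF higher under cycling than under chronic hypoxia, with marginal significance. The ligand gene TGFA went the other way, from 9.61, 9.90 and 9.44 to 8.21, 8.46 and 8.41, although its 2 other probe sets, at -0.78 and -0.75, were not called. EGFR itself fell 2.25-fold to the level of control cells, at 9.43, 9.27 and 9.72 against 9.27 to 9.58, and 1 of its 4 other probe sets was called lower. ERBB4 fell 1.48-fold. ERRFI1, a feedback inhibitor of the receptor, rose 1.63-fold, at 11.82, 11.84 and 11.65 against 11.10, 11.02 and 11.07. ERBB2 (0.10), the shedding protease gene ADAM17 (0.05), BTC (0.46), EGF (-0.00) and ERBB3 (-0.10), the last pair dim, did not pass the test.

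Of 20 genes that ERK signalling raises, 10 were higher (18.5% of all genes were) and 2 lower (15.7% of all genes were), with a median of 0.39. The lower count was 1 without cycling replicate 1, chronic replicate 2 or chronic replicate 3. DUSP5, the nuclear phosphatase of ERK, was at 9.08, 8.89 and 8.27 under cycling and at 6.50, 5.85 and 5.61 under chronic hypoxia, a 6.8-fold rise, with control cells at 8.19 to 8.30. The feedback inhibitor SPRY4 rose 3.53-fold, the ephrin receptor gene EPHA2 2.45-fold and the cytosolic ERK phosphatase gene DUSP6 2.21-fold, and these 3 were above both chronic and control values. The study reported that its PCR on independent material did not bear out the EPHA2 difference in SK-OV-3 cells. Of 17 AP-1 and early response factors, 9 were higher and 2 lower, against the same shares of all genes, with a median of 0.48. The largest rise of this list was that of ATF3 (3.14), which is also counted among the ATF4 targets below. EGR3 rose at least 2.38-fold, at 7.06, 6.15 and 5.54, and KLF4 2.91-fold, at 11.13, 11.17 and 11.17 against 9.81, 9.15 and 9.89. FOSL2 and KLF6 fell, by 1.05 and 0.55 on the log2 scale, the latter not called in 8 of 17 alternatives.

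Targets of ATF4, the factor of the amino acid and integrated stress response, were higher under cycling than under chronic hypoxia. Of 26 tested, 18 were higher (18.5% of all genes were) and 2 were lower (15.7% of all genes were), with a median of 0.93. By at least 2-fold, 10 were higher (3.53% of all genes were). Against control cells, 18 of the 26 were lower under chronic hypoxia (25% of all genes were), with a median of -1.15, while under cycling hypoxia 4 were lower (15.9% of all genes were) and none was higher, with a median of -0.16. The 2 that fell between cycling and chronic hypoxia, STC2 (-1.03) and VLDLR (-0.80), also stand in the list of HIF targets, and STC2 was not called in 9 of 17 alternatives.

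The second chronic array held the lowest chronic value in 24 of these 26 genes, against 32.8% of all genes, and its part in the result was not tested beyond leaving it out. Without that array 21 of the 26 were higher, with a median of 0.65. The count was 11 without cycling replicate 1 and also without cycling replicate 2, and 10 in a fit of the 6 hypoxic arrays alone or with no variation filter.

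ATF3 was at 8.51, 7.96 and 7.70 under cycling hypoxia, at 5.03, 4.35 and 5.38 under chronic hypoxia and at 7.67, 7.76 and 7.96 in control cells. Chronic hypoxia stood apart, cycling and control values overlapped, and the difference was 3.14 (adjusted p = 0.00049), with 1 of 3 chronic arrays dim. CHAC1 was at 9.55, 9.59 and 9.55 under cycling and at 6.73, 5.74 and 7.12 under chronic hypoxia, an 8.19-fold rise, with control cells at 9.19 to 9.45. SESN2, a sensor of leucine, rose 4.48-fold, from 7.33, 6.44 and 6.89 to 9.06, 8.94 and 9.14. The stress factor DDIT3, or CHOP, rose 3.36-fold, and its cycling values of 10.21 to 10.29 were below control values of 10.87 to 11.10. TRIB3, a pseudokinase, rose 2.98-fold, and the asparagine synthetase gene ASNS rose 2.43-fold, with the second chronic array at 8.71 against 10.18 and 10.27 on the others. ASNS was not called in 9 of 17 alternatives.

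The core of the amino acid response element was searched as TGATGCAA on both strands. It stood in 3 of the 21 listed genes with an entry (14.3%), against 0.64% of all tested genes and 0.883% of all genes of the table. This share describes a list of known ATF4 targets, and a match describes letters and not a site. CHAC1, the gene of this kind with the largest rise beside ATF3, is shown with the core, here on the reverse strand, in capitals.
CHAC1, chr15:40953251-40953470, plus strand: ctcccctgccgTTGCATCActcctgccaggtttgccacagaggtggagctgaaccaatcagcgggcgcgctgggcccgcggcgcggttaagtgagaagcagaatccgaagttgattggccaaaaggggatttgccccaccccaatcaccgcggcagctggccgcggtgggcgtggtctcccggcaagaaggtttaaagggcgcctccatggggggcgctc

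Of 22 chaperones and factors of the unfolded protein response, 7 were higher (18.5% of all genes were) and none lower (15.7% of all genes were), with a median of 0.08 that ran from -0.06 to 0.21 when 1 array was left out. They included the stress sensor ERN1 (3.31-fold), its target XBP1 (1.87-fold) and the co-chaperones DNAJB11 (1.92-fold) and DNAJB9 (1.87-fold). Against control cells, 13 of the 22 were lower and 3 higher under chronic hypoxia, and 8 lower and 1 higher under cycling hypoxia. Of all genes, 25% were lower and 24.1% higher under chronic hypoxia, and 15.9% lower and 19.3% higher under cycling hypoxia. Of 11 heat shock genes, 5 were higher against 18.5% of all genes, among them HSPA4 (2.2-fold), HSPH1 (2.02-fold) and DNAJB1 (1.7-fold), and DNAJB4 was lower (1.6-fold), a call lost in 11 of 17 alternatives. Against control cells, 9 of the 11 were lower and none higher under chronic hypoxia, and 3 lower and 1 higher under cycling hypoxia. Of 26 NRF2 targets and antioxidant enzymes, 8 were higher and 2 lower, against 18.5% and 15.7% of all genes, with a median of -0.04. Against control cells, 21 of the 26 were lower under each type of hypoxia, and 1 was higher under chronic and none under cycling hypoxia. NFE2L2, which encodes NRF2, rose 2.41-fold, to 12.36, 12.40 and 12.57 from 11.15, 11.14 and 11.24, and its cycling values overlapped those of control cells, at 12.32 to 12.53. The thioredoxin reductase gene TXNRD1 and the sulfiredoxin gene SRXN1 rose 1.51-fold and 1.55-fold and stayed below control cells, by 0.85 and 0.68. The haem oxygenase gene HMOX1 was lowest under cycling hypoxia, at 4.90, 5.00 and 4.74, against 5.59 to 5.96 under chronic hypoxia and 6.61 to 7.15 in control cells.

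Of 19 genes known as p53 targets, 8 were higher (18.5% of all genes were) and 3 lower (15.7% of all genes were). TIGAR was at 5.18, 5.29 and 5.59 under cycling hypoxia, within the control range of 5.22 to 5.67 except on 1 array, and at 2.36, 3.09 and 2.96 under chronic hypoxia. The growth arrest gene GADD45A rose 2.83-fold, and the kinase gene PLK3 rose at least 2.3-fold, while its other probe set was at -0.70 and was not called. SK-OV-3 cells are known to lack p53, and SESN2, GADD45A and others of the list also answer to other factors. Without cycling replicate 2 the higher count was 5, and the lower one was 0 to 2 without any 1 of the 6 hypoxic arrays. Of 18 genes of MYC and ribosome biogenesis, 12 were higher and 1 was lower, against the same shares of all genes, with a median of 0.74. The ribosome assembly genes RRS1, NOP16 and NOP2 rose 3.29-fold, 2.41-fold and 2.27-fold. MXD1, an antagonist of MYC, rose 2.89-fold, and MXI1, another antagonist and a HIF target, was the single fall, by 1.09 on the log2 scale.

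Genes of the matrix were lower under cycling hypoxia or did not pass the test. Of 28 collagens and matrix proteins, 11 were lower (15.7% of all genes were) and none was higher (18.5% of all genes were), with a median of -0.51. The proteoglycan gene LUM was at 7.14, 8.04 and 7.03 under chronic and at 6.06, 6.15 and 5.50 under cycling hypoxia, and control cells were under 5, at 3.60 to 3.75. COL1A1, a chain of type I collagen, fell 2.45-fold, the fibrillin gene FBN1 2.15-fold and COL6A2 1.87-fold, and all 3 stayed above control cells, by 2.23, 1.54 and 1.75. The count of lower genes was 7 without cycling replicate 2 and without cycling replicate 3, and 7 with no variation filter. In the urokinase system and among matrix proteases, the protease and its receptor parted. PLAU, the urokinase gene, was at 12.01, 12.11 and 11.67 under cycling and at 11.06, 11.00 and 10.87 under chronic hypoxia. It was the only rise among 17 genes (18.5% of all genes were higher), whereas 7 were lower (15.7% of all genes were). Without chronic replicate 2 there were 2 rises. The study reported that its PCR did not bear out the PLAU difference in SK-OV-3 cells. The receptor gene PLAUR was at 7.66, 7.65 and 7.29 against 8.56, 8.82 and 8.72, a 2.25-fold fall. The metalloproteinase gene MMP10 fell 2.3-fold, and the tissue plasminogen activator gene PLAT fell by 1.17 on the log2 scale, with 2 of 3 cycling arrays dim and the call lost in 7 of 17 alternatives.

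Of 15 targets of YAP and TEAD, 3 were higher (18.5% of all genes were) and 6 lower (15.7% of all genes were). The connective tissue growth factor gene CCN2 rose 2.51-fold, to 10.01, 10.33 and 9.48, with chronic cells at 8.28 to 8.96. The phosphatase gene PTPN14 fell 1.86-fold, the ecto-nucleotidase gene NT5E 1.69-fold and the tissue factor gene F3 1.64-fold. Of 7 metallothioneins and a zinc exporter tested with them, 5 metallothioneins were lower (15.7% of all genes were). These were MT1F, MT1X, MT1H, MT2A and MT1G, by 1.76-fold to 2.36-fold, and the exporter gene SLC30A1 was higher (1.39-fold). MT1E (-0.54) did not pass the test, and MT1M was at the floor. Probes for genes this alike can bind more than 1 of them. Among 6 arrestin domain genes and their regulators, ARRDC4 and TXNIP rose by 1.23 and 0.42 on the log2 scale, and ARRDC3 and MLXIP fell by 2.20 and 0.55, while ARRDC1 (0.11) and ARRDC2 (-0.38) did not pass the test.

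Of 47 genes of mitosis, 11 were higher (23.4%, against 18.5% of all genes) and 1, the cytokinesis scaffold gene ANLN, was lower, with a median of 0.30, and of 37 replication genes 1, ORC6, was higher and 3, POLA1, RRM1 and POLD1, were lower, fewer than the 18.5% and 15.7% of all genes, with a median of -0.10. POLA1 lost its call in 11 of 17 alternatives. The second chronic array held the highest chronic value in 35 of the 47 and in 34 of the 37 genes, against 3048 of all 10021 genes. The mitosis count ran from 3 without cycling replicate 2, and 4 without cycling replicate 1, to 18 without cycling replicate 3, and it was 7 without chronic replicate 1, 6 without chronic replicate 2 and 6 without chronic replicate 3. Without the second chronic array 6 replication genes were higher and 2 lower, with a median of 0.05. The mitotic genes FAM83D, CENPA and KIF23 rose 2.1-fold, 2.01-fold and 1.95-fold. Among E2F factors and G1 cyclins, 6 of 18 were higher and 4 lower, or 2 lower without cycling replicate 2, against 18.5% and 15.7% of all genes. E2F3 and E2F6 rose 1.86-fold and 1.69-fold, CCNE1 rose by 1.14 on the log2 scale, with 2 of 3 chronic arrays dim, and SKP2, the ubiquitin ligase subunit that removes the inhibitor p27, fell 2.6-fold, from 7.56, 7.63 and 7.40 to 6.01, 6.28 and 6.16. Of 19 repair and checkpoint genes 4 were higher and 3 lower, near the shares of all genes, and 2 were higher without cycling replicate 1, chronic replicate 3, control replicate 1 or control replicate 2 and 1 without cycling replicate 2. The recombination gene RAD54B fell 2.79-fold, to the level of control cells, the checkpoint kinase gene ATM fell 1.73-fold, the uracil glycosylase gene UNG fell 1.48-fold and the end-joining gene XRCC4 rose 1.43-fold, the last pair being calls lost in 9 and 10 of 17 alternatives. Of 24 respiratory chain genes 3 were higher and 6 lower, against 18.5% and 15.7% of all genes, with a median of -0.17 and the largest rise that of NDUFS1 (0.57). CYC1 was higher by 0.40, and UQCRB and COX7B were lower by 0.41 and 0.33. The lower count was 2 without any 1 of the cycling arrays and 3 or 2 without chronic replicate 1 or 2.

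**Figure D3:**
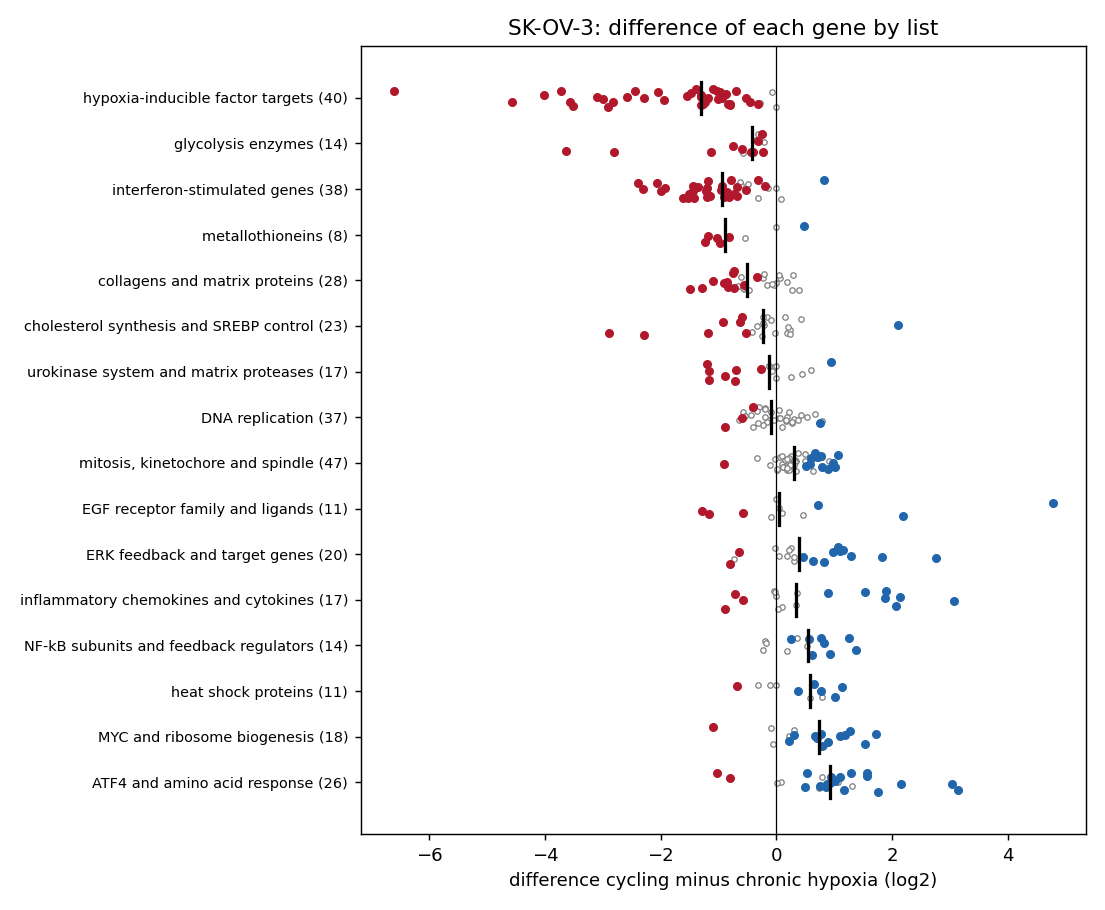
Difference between cycling and chronic hypoxia (log2, horizontal axis) of each gene tested in 16 lists, with the number of genes in brackets. Blue points are genes called higher, red points genes called lower, open points genes that did not pass the test, and the black bar is the median, which ran from -1.30 in HIF targets to 0.93 in ATF4 targets.

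The same comparison gave other results in the other cell lines, which were grown in other media. The difference between cycling and chronic hypoxia itself differed between SK-OV-3 and PC-3 cells for 3352 genes (33.4%), and between SK-OV-3 and WM793B cells for 3088 genes (30.8%), with 1924 genes in both. Over probe sets the test called 6130 (31%) and 5835 (29.5%). For HIF targets the direction was shared. Their median was -1.30 in SK-OV-3, -1.06 in PC-3 and -0.99 in WM793B cells. The fall was larger in SK-OV-3 cells for 23 of 40 targets against PC-3 cells (21.4% of all genes were more negative in SK-OV-3) and for 20 against WM793B cells (16.9% of all genes were).

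Interferon-stimulated genes had a median of -0.94 in SK-OV-3 cells, of 0.68 in PC-3 cells and of 0.13 in WM793B cells. The test of the difference called 33 of the 38 more negative in SK-OV-3 than in PC-3 cells (21.4% of all genes were), and 24 than in WM793B cells (16.9% of all genes were). OAS2 differed by -2.31 in SK-OV-3 cells, by 1.18 in PC-3 cells (adjusted p of the difference 6.13e-10) and by 0.21 in WM793B cells (6.66e-08). ATF4 targets had medians of 0.93, -0.45 and -0.08 in the order SK-OV-3, PC-3 and WM793B, and 20 of 26 were more positive in SK-OV-3 than in PC-3 cells (12% of all genes were) and 17 than in WM793B cells (13.9% of all genes were). DDIT3 rose by 1.75 in SK-OV-3 cells, and its differences were -1.30 in PC-3 and -2.38 in WM793B cells.

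Among chemokines and cytokines, 7 of 17 were more positive in SK-OV-3 than in PC-3 cells (12% of all genes were), and 6 were more positive (13.9% of all genes were) and 3 more negative (16.9% of all genes were) than in WM793B cells. CXCL8 differed by 1.89 in SK-OV-3, by -0.24 in PC-3 and by -0.26 in WM793B cells, and IL6 by 2.07, 0.18 and -1.03 in the same order. Of 14 NF-kB genes, 8 were more positive than in PC-3 and 11 than in WM793B cells, against 12% and 13.9% of all genes. HIF1A mRNA was higher under cycling hypoxia in PC-3 cells by a like amount, at 0.96 against 0.94 (adjusted p of the difference 0.949), and its difference in WM793B cells was -0.10 (2.22e-07). VEGFA, at -0.87 in SK-OV-3, -1.08 in PC-3 and -1.27 in WM793B cells, was not called different between the lines (adjusted p = 0.517 and 0.17).

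**Figure D4:**
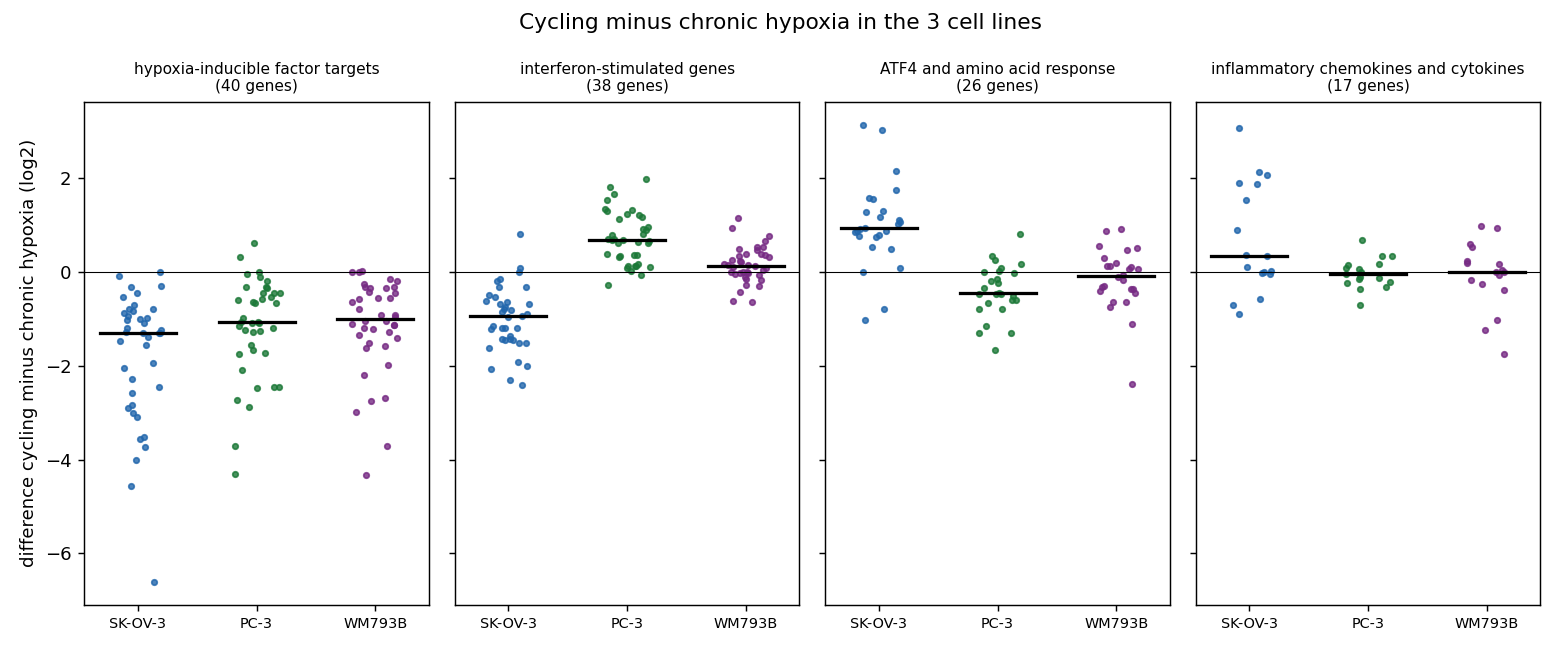
Difference between cycling and chronic hypoxia (log2, vertical axis) of each gene of 4 lists in SK-OV-3, PC-3 and WM793B cells, with the median as a bar. HIF targets lie mostly below 0 in all 3 lines, while interferon-stimulated genes lie below 0 and ATF4 targets above 0 on the median only in SK-OV-3 cells.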

How the data were processed

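Whole-cell RNA of each culture was labelled and hybridised to a Human Genome U133 Plus 2.0 array. Per the labels and the study's methods, the authors processed the scans with GC-RMA, which corrects background by probe sequence, normalizes between arrays and gives a log2 value for each of 54675 probe sets. These deposited log2 values were used as they are. GC-RMA sets many dim probe sets to a floor (33.0 to 34.3% of them on SK-OV-3 arrays), which shrinks the spread there, so where all 3 values of a group were under 5, a limit chosen here on the log2 scale, the fold given is a lower bound, the mean of the other group over 5. The number of arrays limits precision.

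Probe sets that differed at least 1.5-fold from their median in at least 20% of arrays were kept (19800, of which 17314 carried 1 gene symbol, 811 several and 1675 none in the platform annotation). A gene was read by the one with the highest mean on the 9 SK-OV-3 arrays. limma 3.58.1 (R 4.3.3) was fitted to these 9 arrays in 3 groups, or to all 27 arrays for differences between cell lines, with two-sided moderated tests and Benjamini-Hochberg adjustment over the 19800 probe sets (called at under 0.05). It stands in for the random-variance test of the study's methods, and was tested on simulated data. Figures and counts were made with Python 3.11.15, pandas 2.3.3 and matplotlib 3.10.9.

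The comparison and gene lists were chosen with earlier results of these data known, so list counts are descriptions. Genes whose symbol stands on no probe set alone were not read. Named are the 10 largest rises and falls with a mean of at least 5 in the higher group and no overlap, the 4 largest called differences of each list and each member of lists of up to 13 genes. Chosen after their values were seen are LOX, SLC2A3, ERO1A, VEGFA, SLC2A1, BNIP3, NDRG1, CXCL1, CXCL3, IL11, ISG15, IFIT1, IRF1, TRIB3, ASNS, MXI1, STC2, VLDLR, TNFSF10, IL32, CSF1 and KLF6. Promoters are RefSeq's.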

Additional observations from a re-analysis of the deposited data

Results flagged for a closer look

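Of the 20 genes with the largest differences in SK-OV-3 cells, 19 differed by the test between cell lines from the same comparison in 1 or both of the others. Of all 10021 genes, 3352 did against PC-3 cells (33.4%) and 3088 against WM793B cells (30.8%), with 1924 in both. These shares are for each line alone, and the share for 1 or both lines is larger. The genes were chosen for large SK-OV-3 differences, which also enter that test, so the count is a description. The exception was ANGPTL4 (differences of -4.56 in SK-OV-3, -3.72 in PC-3 and -3.70 in WM793B cells). The values that follow are the difference between cycling and chronic hypoxia in SK-OV-3 cells minus that in the other line, on the log2 scale. Among the genes that fell, this was -2.32 for CXCR4 against PC-3 and -6.61 against WM793B cells, where CXCR4 was at 2.28 in both hypoxic groups. ACKR3 gave -0.64 and -3.52, and it too was dim in WM793B cells, at 2.29 and 2.31. DEPP1 gave -2.83 and -5.24, FAM43A -4.63 and -4.69, and NAV1 -3.02 and -3.90. FAM43A had positive differences in the other lines, 0.73 and 0.79. PFKFB4, HK2 and STC1 had negative differences in all 3 lines and gave -1.91 and -1.02, -2.29 and -1.81, and -2.48 and -1.53. ANKRD37 gave -0.83 against PC-3 cells.

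Among the genes that rose, EREG gave 4.47 against PC-3 and 4.76 against WM793B cells, and it was dim in both other lines, with hypoxic means of 2.29 to 2.61. LINC02806 gave 3.04 and 3.04, and it was at 2.28 or 2.29 there. CXCL2 gave 3.01 and 4.82 and had means of 8.22 to 9.97 in the other lines. ATF3 gave 3.94 and 3.50, PTX3 gave 3.79 and 3.66, and DUSP5 3.66 and 3.10, and all 3 had negative differences in both other lines. CHAC1 gave 3.05 and 2.52, COQ10B 2.31 and 1.85, TIGAR 1.89 and 1.17, and ATP6V0A2 1.85 and 1.82. TIGAR, COQ10B and ATP6V0A2 had positive differences in all 3 lines.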

How the results depend on the processing

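Under 17 alternatives, the probe sets called numbered 4373 (without cycling replicate 2) to 5724 with 1 array left out, and 5081 to 7422 under other choices, against 6026. Those at least 2-fold apart numbered 1301 to 1598. No call of 145 named genes reversed, and 173 of 2464 values fell short of the threshold, for 27 genes (most often ARNT, EPCAM, DNAJB4, POLA1, XRCC4, ASNS, NFKBIZ, STC2, UNG, KLF6 and MLXIP, 8 to 12 times each). The uncalled SLC2A3 changed sign in 5 alternatives (0.00 or 0.03) and LOX in 1, with -0.14 to 0.02 when 1 array was left out. Replicate numbers were not used to pair the samples. Same-numbered cycling and chronic arrays deviated together at r of -0.075 to 0.078, and same-numbered arrays of any 2 SK-OV-3 groups at -0.092 to 0.164. With 3 arrays per group these values cannot exclude pairing. The fit with the replicate block called 5421 probe sets, 1420 of them at least 2-fold apart. Counts of lower HIF targets were 35 to 37 with 1 array left out, those of lower interferon-stimulated genes 28 to 31, of higher chemokines and cytokines 7 to 8 and of higher ATF4 targets 11 to 21. The ATF4 count was 10 in the 6 hypoxic arrays alone and 10 with no filter, and the cause was not tested. Of 884 values of the other list counts, 117 moved by over 1.5 times. Differences between cell lines numbered 5469 to 6869 probe sets against PC-3 and 5166 to 6419 against WM793B cells. No alternative moved the median difference by more than 0.04. Signal near the floor limits the fold of dim genes, and 3 arrays per group limit small differences.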
